A study of Mus musculus with 8 samples.

Results

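Transforming growth factor beta (TGF-beta) signalling was described through 10 genes out of 22026 genes counted in 2 mouse breast cancer cell lines. The genes were chosen by name for their place in the pathway. They are the 3 ligand genes Tgfb1, Tgfb2 and Tgfb3, the gene of the latent TGF-beta binding protein Ltbp1, the receptor genes Tgfbr1, Tgfbr2 and Tgfbr3, the signal transducer Smad3, and the feedback genes Smad7 and Skil. All 10 passed edgeR's filter on low counts, among 11970 genes tested over both lines, 11361 in 4T1 and 11276 in TS/A.

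The series held 8 bulk RNA sequencing libraries, 2 for each of 4 groups. 4T1 and TS/A are mammary carcinoma lines of the BALB/c mouse strain, grown in RPMI with 10% FCS, and RNA was taken at 72 h. By the sample characteristics, cells of each line carried either an empty virus vector or a vector for Gpr56 (Adgrg1), an adhesion G protein-coupled receptor known to bind type III collagen, and the design text places the cells on that collagen. The sample titles part the same libraries as Emp_Control and Emp_ColIII, so the labels alone do not settle which vector and which collagen culture a group had. Groups here follow the characteristics. The transduced gene itself was read first. Adgrg1 stood at 2.53 and 2.77 CPM (counts scaled to library size, here with TMM factors) in the 4T1 libraries with the empty vector and at 90.5 and 100.1 CPM in those with the Gpr56 vector (log2 fold change 5.15, SE 0.11, edgeR adjusted p = 7.74e-14 with 4T1 fitted alone). In TS/A it stood at 34.8 and 16.3 CPM with the empty vector and at 22.6 and 13.3 CPM in the libraries labelled Gpr56 (-0.51, SE 0.41, edgeR adjusted p = 1). Adgrg1 thus parted the vector labels in 4T1 and did not part them in TS/A, where the second group is called by its label throughout. The labels do not say whether the libraries of a group are separate cultures, so each p-value measures the spread between these samples only, which may be technical.

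TGF-beta ligands are secreted in a latent form, held in the extracellular matrix by latent TGF-beta binding proteins, and act once released by integrins, proteases or thrombospondin. The active ligand joins the kinase receptors TGFBR2 and TGFBR1, with TGFBR3 (betaglycan) as a co-receptor that presents ligand, above all TGF-beta 2, and TGFBR1 then phosphorylates SMAD2 and SMAD3. SMAD7 blocks the receptor and SKIL (SnoN) represses SMAD target genes. Both genes are themselves induced by the pathway. In mammary carcinoma cells TGF-beta is known for growth arrest as well as for epithelial to mesenchymal transition and invasion.

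Depth ran from 10510569 to 25959142 reads per library. Libraries of a group lay close together in 4T1 and far apart in TS/A with the empty vector, where the median absolute log2 difference between the 2 libraries over all tested genes was 0.38, against 0.08, 0.12 and 0.15 in 4T1 empty, 4T1 Gpr56 and TS/A Gpr56. Vector effects were therefore fitted within each line, and the fit of all 8 libraries is given beside the calls. Summed epithelial markers stood at 2308 to 2338 CPM of the library total in 4T1 under the empty vector, at 3366 to 3427 CPM under the Gpr56 vector and at 194 to 258 CPM in TS/A. TS/A held at most 2 reads of Epcam, 5 of Cdh1 and 14 of Krt8 in any library, so that these markers were nearly absent there. Other epithelial markers were present in TS/A, Krt18 at 157 to 202 CPM and Krt19 at 32.3 to 55.0 CPM. Most members of the immune list had at most 3 reads in any library (17 of 20 in each line), Cd3e and Adgre1 among those with none. Of the 13 fibroblast markers Dpt, Fap, Lum and Thy1 had no read in either line, while Pdgfra had 88 to 366 reads in every library, and Col1a1 had 2572 to 7591 and Pdgfrb 36 to 218 reads in TS/A.

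By level per transcript length, Tgfbr2 headed the members in 4T1 and Ltbp1 in TS/A. The unit here is the authors' RPKM (reads scaled by transcript length and library size), summed over a gene's transcripts. In 4T1 with the empty vector Tgfbr2 led at 38.0 ± 0.183 RPKM (SD, n = 2), followed by Ltbp1 at 33.0 ± 0.939 and Skil at 19.4 ± 1.88. Tgfb1 and Smad7, both near 11.7, overlapped each other, as did Tgfbr1 (9.72) with Smad3 (9.30), and the order ended with Tgfb3 (2.81), Tgfb2 (1.87) and Tgfbr3 (1.83), the last pair overlapping. In TS/A with the empty vector Ltbp1 (32.0 ± 10.9 RPKM), Skil (23.6 ± 2.67), Tgfb1 (21.2 ± 6.43) and Tgfbr2 (17.4 ± 5.77) came first, each overlapping its neighbour in the order. Tgfbr1 (2.76 ± 0.30) and Tgfb2 (1.41 ± 0.841) came last. In both lines Tgfb1 was the most abundant of the 3 ligand genes by RPKM. Betaglycan was the scarcest receptor gene in 4T1, and the type I receptor was the scarcest in TS/A.

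**Figure D1:**
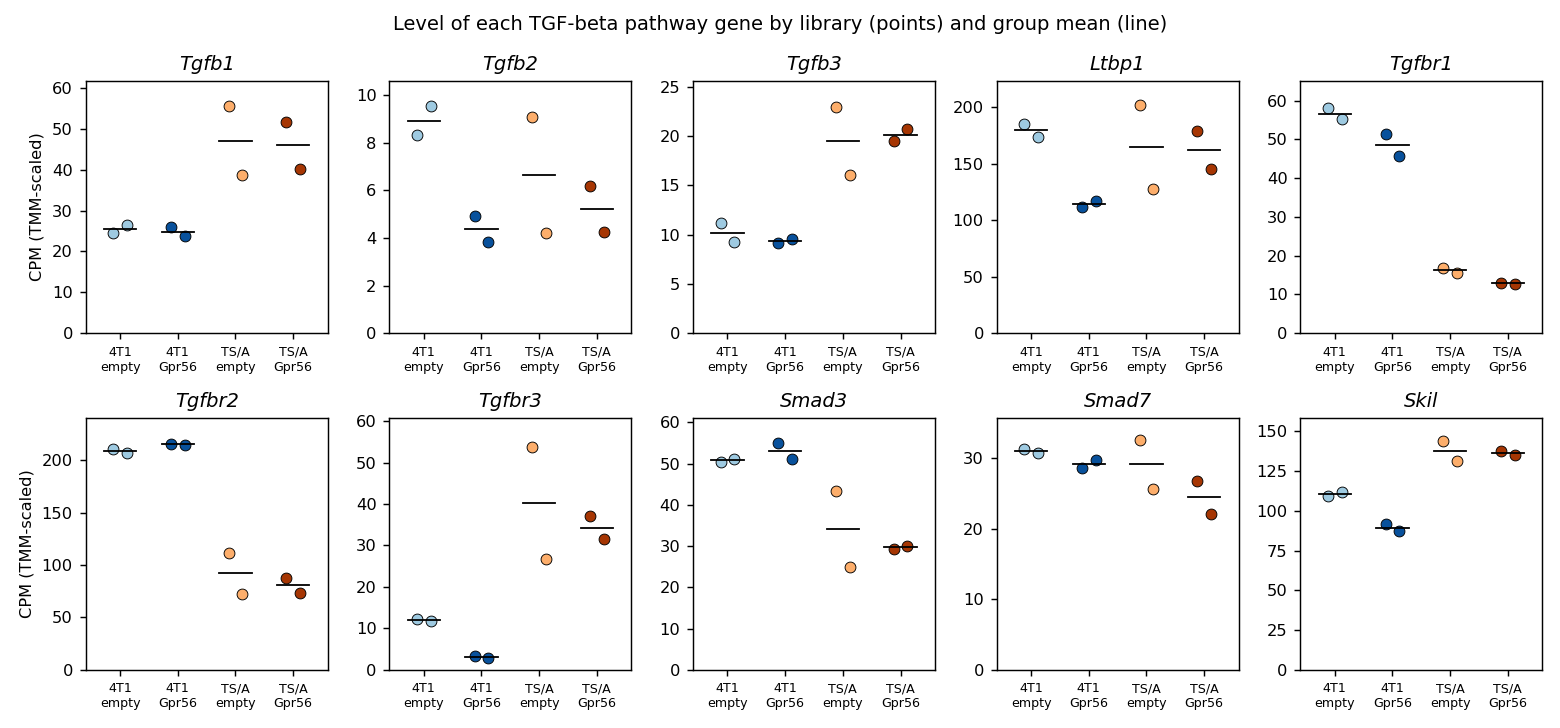
Each panel plots 1 gene in CPM (TMM-scaled, axis from 0) for the 4 groups, with a point for each library and a line at the group mean. Tgfbr3, Ltbp1 and Tgfb2 sit lower in both 4T1 libraries with the Gpr56 vector than in both with the empty vector, and the 2 TS/A empty libraries lie far apart for most genes.

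The first comparison asked which pathway genes differed between the vectors within 4T1. Betaglycan, TGF-beta 2, the binding protein Ltbp1 and the repressor Skil were lower with the Gpr56 vector, and no member passed as higher. Thus 4 of 10 members passed, all lower, where 22.8% of the 11361 genes tested passed and 11.3% passed as lower (edgeR's quasi-likelihood test, Benjamini-Hochberg adjusted p under 0.05). The median log2 fold change was -0.17 over the members and -0.00040 over all genes tested. Both libraries of a group lay on the same side of both others for 7 of 10 members, 6 lower and Tgfbr2 higher, and for 61.7% of all genes tested (31.2% lower and 30.5% higher), so that this share lies near the background. With 1 spread estimated over all 8 libraries, 0 of 10 members passed and 27 genes in all (0.226%) did. The 4T1 count of 2588 genes became 1596 when 4T1 empty library 1 was left out and 1403 when library 2 was, and the 4 members passed in each of 4 fits that left out 1 library of 4T1.

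Among the ligands, Tgfb2, whose product depends on betaglycan for high-affinity binding, was lower in 4T1 with the Gpr56 vector. It stood at 8.33 and 9.54 CPM under the empty vector and at 4.92 and 3.84 CPM under the Gpr56 vector (148, 203, 105 and 41 reads), so the groups did not overlap. The fall was 1.996-fold, from 8.93 ± 0.857 to 4.38 ± 0.758 CPM (SD, n = 2), with a log2 fold change of -0.997 (SE 0.19, edgeR adjusted p = 0.0017, and 0.334 in the fit of all 8 libraries). Tgfb1, the ligand of most tissues, stood at 24.6 and 26.5 CPM against 26.0 and 23.7 CPM, with groups that overlapped (log2 fold change -0.03, SE 0.10, edgeR adjusted p = 0.862). Tgfb3 stood at 11.2 and 9.21 CPM against 9.13 and 9.56 CPM (log2 fold change -0.13, SE 0.16, edgeR adjusted p = 0.616). In bulk RNA, fewer cells that express a gene and less RNA per cell cannot be told apart, for Tgfb2 as for every gene below.

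Ltbp1, which binds the latent ligand complex and anchors it in matrix, stood at 186 and 174 CPM under the empty vector and at 112 and 117 CPM under the Gpr56 vector in 4T1. The groups lay well apart. The log2 fold change was -0.65 (SE 0.06, 1.57-fold lower, edgeR adjusted p = 3.34e-06, and 0.27 with all 8 libraries). Reads of Ltbp1 come from transcripts of 2 RefSeq start sites 173252 bases apart, and the downstream start took 86.2% to 89.9% of the reads in the 8 libraries, as far as the authors' assignment of reads to transcripts can part them. Transcripts of the downstream start stood at 159 and 151 CPM of the library total against 97.4 and 107 CPM, and those of the upstream start at 25.0 and 19.3 against 15.6 and 12.4 CPM. Both sets were therefore lower in both 4T1 Gpr56 libraries, with no test made per start.

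The sequences before the start sites of the ligand and latency genes show what letters of known TGF-beta response elements these genes carry. They are taken from RefSeq on GRCm38.p6, 250 bases directly before each start and 5′ to 3′ on the gene's strand, for Tgfb2 and Ltbp1, which fell in 4T1, and for Tgfb1, which did not pass. Capitals mark CAGAC, the core of the Smad binding element, or its reverse complement GTCTG.
Tgfb2, chr1:186705990-186706239, minus strand: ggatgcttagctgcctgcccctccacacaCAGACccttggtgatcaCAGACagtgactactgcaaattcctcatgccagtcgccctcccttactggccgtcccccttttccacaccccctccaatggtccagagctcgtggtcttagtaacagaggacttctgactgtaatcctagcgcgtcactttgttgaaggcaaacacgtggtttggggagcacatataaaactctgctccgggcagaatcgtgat
Ltbp1, downstream start, chr17:75178531-75178780, plus strand: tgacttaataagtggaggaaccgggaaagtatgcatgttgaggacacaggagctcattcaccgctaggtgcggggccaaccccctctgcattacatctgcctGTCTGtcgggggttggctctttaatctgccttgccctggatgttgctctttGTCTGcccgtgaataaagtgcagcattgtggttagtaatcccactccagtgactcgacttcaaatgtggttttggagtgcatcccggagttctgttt
Tgfb1, chr7:25686752-25687001, plus strand: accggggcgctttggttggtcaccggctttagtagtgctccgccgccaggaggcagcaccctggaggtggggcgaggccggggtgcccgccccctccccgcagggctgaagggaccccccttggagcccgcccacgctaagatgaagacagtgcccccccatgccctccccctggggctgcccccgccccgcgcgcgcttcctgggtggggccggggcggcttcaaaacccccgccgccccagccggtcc
The Tgfb2 window holds 2 matches, 221 and 204 bases before the start. That of the downstream Ltbp1 start holds 2, at 148 and 97 bases, and that of Tgfb1 holds 0. The search covered 8 windows of 6 of the 10 members. Tgfb3, Tgfbr3, Skil and Smad7 were not searched, so nothing is said here of matches before their starts. Among the 8 windows, the upstream Ltbp1 start, Tgfbr2 and 1 of the 2 Tgfbr1 windows held 1 match each. Smad3 and the other Tgfbr1 window held 0. Among 32851 such windows of all genes, 42.2% held at least 1 match on either strand, with a mean of 0.569, so a match is common. The AP-1 motif TGANTCA, searched on both strands, was in 0 of the 8 windows and in 6.75% of all windows, so no match overlapped a CAGAC match. These matches describe letters, not binding.

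Of the receptors, Tgfbr3 changed most. Betaglycan reads numbered 217 and 248 under the empty vector and 73 and 30 under the Gpr56 vector in 4T1, or 12.2 and 11.7 CPM against 3.42 and 2.81 CPM. Both Gpr56 libraries lay far below both empty ones. The level fell 3.74-fold, from 11.9 ± 0.393 CPM, with a log2 fold change of -1.90 (SE 0.18, edgeR adjusted p = 4.66e-06, and 0.0921 with all 8 libraries). Tgfbr1, the kinase that phosphorylates Smad2 and Smad3, stood at 58.0 and 55.4 CPM against 51.4 and 45.7 CPM. Its groups did not overlap, but its log2 fold change of -0.21 (SE 0.07, edgeR adjusted p = 0.0534) missed the threshold, and passed it without 4T1 Gpr56 library 1 (-0.31, edgeR adjusted p = 0.0157). Tgfbr2, the ligand-binding kinase, had the smallest standard error of the 10, at 211 and 207 CPM against 215 and 215 CPM (log2 fold change 0.04, SE 0.05, edgeR adjusted p = 0.623). The 2 kinase receptors and betaglycan thus gave different values under the same labels in 4T1.

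Smad3, which carries the signal to the nucleus, stood at 50.5 and 51.1 CPM under the empty vector and at 55.1 and 51.0 CPM under the Gpr56 vector in 4T1 (log2 fold change 0.07, SE 0.07, edgeR adjusted p = 0.533). Smad7, the inhibitor of the receptor, stood at 31.3 and 30.7 CPM against 28.7 and 29.7 CPM, lower in both Gpr56 libraries by an amount that did not pass (-0.09, SE 0.09, edgeR adjusted p = 0.535). Skil, the repressor SnoN, was the feedback gene that passed. It stood at 109 and 112 CPM against 91.5 and 87.5 CPM, with groups that did not overlap and a log2 fold change of -0.30 (SE 0.06, 1.23-fold lower, edgeR adjusted p = 0.00204, and 0.311 with all 8 libraries). The calls of Tgfb2, Ltbp1, Tgfbr3 and Skil returned when either TS/A empty library was left out of the fit of both lines. This alternative was added after seeing the data. The TS/A empty group then gives no spread of its own, so their return cannot decide whether the calls hold. In the same 4T1 libraries 10 of 12 tested epithelial markers rose and 1 fell (91.7%, where 22.8% of all tested genes passed). The summed immune markers stood at 15.1 and 13.5 CPM of the library total against 25.2 and 28.4 CPM, of which Cd68 made 6.59 and 6.47 against 13.5 and 17.6 CPM. Fibroblast markers summed to 16.6 and 16.6 against 9.44 and 11.0 CPM, most of it Pdgfra, at 13.2 and 13.1 against 8.02 and 8.37 CPM. Endothelial markers summed to 105 and 109 against 116 and 131 CPM. Of these sums Eng, itself a co-receptor of the family, made 64.6 and 69.2 against 82.2 and 90.1 CPM, and without it they were 40.3 and 40.2 against 33.9 and 41.0 CPM. Their part in the results for the pathway genes was not tested.

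**Figure D2:**
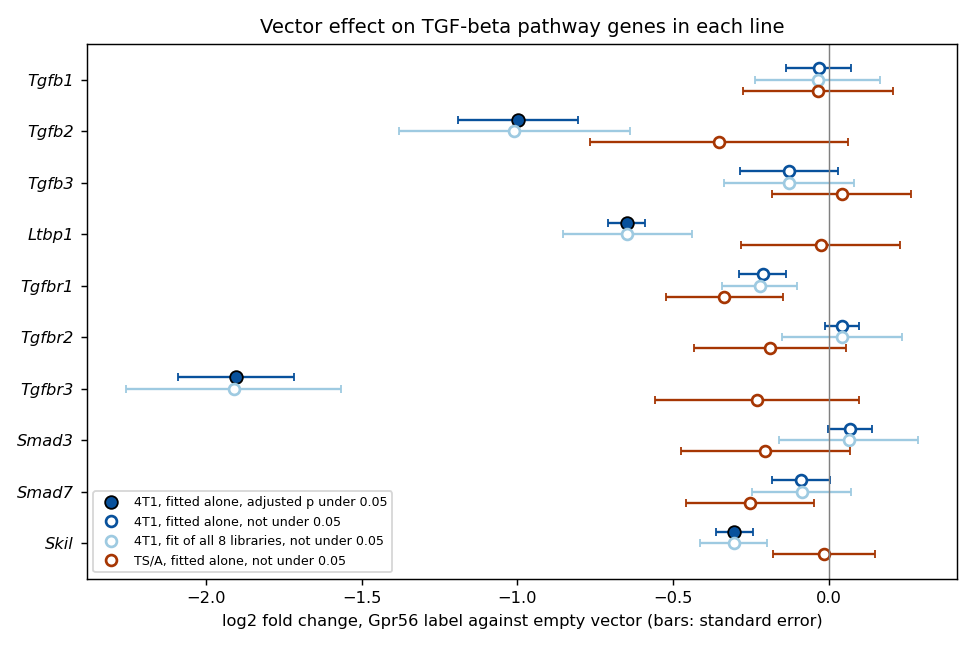
Points give the log2 fold change of the Gpr56 label against the empty vector for each gene, bars the standard error, and filled points an adjusted p under 0.05. Tgfbr3 (-1.90), Tgfb2 (-0.997), Ltbp1 (-0.65) and Skil (-0.30) are filled for 4T1 fitted alone, the paler 4T1 points from all 8 libraries have nearly the same values with wider bars, and no TS/A point is filled.

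In TS/A no member passed the test between the libraries labelled Gpr56 and those with the empty vector. By edgeR 0 of 10 members and 0 of 11276 genes passed (0%), with 115 genes and 0 members at an unadjusted p under 0.05, and DESeq2 called 3 genes and 0 members. Log2 fold changes of the members ran from -0.35 for Tgfb2 to 0.04 for Tgfb3, with standard errors of 0.16 to 0.41, and 9 of 10 were negative (median -0.20, against -0.02 over all genes tested). Tgfbr1 was the 1 member whose groups did not overlap, at 16.7 and 15.6 CPM against 13.0 and 12.6 CPM (log2 fold change -0.34, SE 0.19, edgeR adjusted p = 1), where 21.7% of all genes tested did not overlap. The other receptors overlapped. Tgfbr2 stood at 112 and 72.4 CPM with the empty vector and at 87.8 and 73.5 CPM in the libraries labelled Gpr56. For Tgfbr3 the values were 53.8 and 26.8 against 37.1 and 31.4 CPM, so both libraries labelled Gpr56 fell between the 2 empty ones.

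Ligands and feedback genes showed the same overlap in TS/A. Tgfb1 stood at 55.6 and 38.7 CPM with the empty vector against 51.8 and 40.2 CPM under the Gpr56 label, and Tgfb2 at 9.10 and 4.20 against 6.17 and 4.25 CPM. Tgfb3 stood at 23.0 and 16.0 against 19.5 and 20.7 CPM, and Ltbp1 at 202 and 128 against 179 and 145 CPM. For these 4 genes both values under the Gpr56 label lay between the 2 empty libraries. Smad3 stood at 43.4 and 25.0 against 29.3 and 30.1 CPM, again in between. Smad7 stood at 32.6 and 25.7 against 26.8 and 22.2 CPM, and Skil at 144 and 131 against 137 and 135 CPM.

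All 10 members were higher in TS/A empty library 1 than in TS/A empty library 2, and 7 of them by more than 0.5 on the log2 scale, where 53.2% and 20.1% of all tested genes were. Tgfb2 differed most between these 2 libraries (1.10), followed by Tgfbr3 (1.001) and Smad3 (0.79), while Tgfbr1 (0.10) and Skil (0.14) differed least. Empty library 1 was the highest and empty library 2 the lowest of the 4 TS/A libraries for 8 of 10 members and for 23.6% of genes with at least 40 reads in TS/A. The summed fibroblast markers ran in the same order, at 355 CPM of the library total in empty library 1, 142 in empty library 2 and 220 and 159 in the libraries labelled Gpr56. Most of this sum was Col1a1, at 328, 131, 202 and 142 CPM in that order, with Dpt, Fap, Lum and Thy1 at no read. Epithelial markers did not follow this order, at 194 and 204 CPM in the empty libraries against 207 and 258 CPM under the Gpr56 label. Immune markers summed to 8.13 and 12.5 against 11.1 and 13.1 CPM and endothelial markers to 32.7 and 25.9 against 34.6 and 29.1 CPM. Whether any of these bears on the pathway genes was not tested.

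The TS/A values turned on which empty library was used. Without TS/A empty library 2 every member was lower under the Gpr56 label, by log2 fold changes from -0.78 for Tgfb2 to -0.06 for Skil. Empty library 1, the one kept there, was the highest TS/A library for all 10 members. It was so for 39.7% of genes with at least 40 reads in TS/A. Tgfbr3 stood at -0.63, Smad3 at -0.52 and Adgrg1 itself at -0.93. Without TS/A empty library 1, Tgfbr3 (0.35), Ltbp1 (0.34), Tgfb3 (0.32), Tgfb2 (0.31) and Tgfb1 (0.25) were positive. So were Smad3 (0.24), Tgfbr2 (0.15) and Skil (0.05), while Tgfbr1 (-0.29) and Smad7 (-0.07) were negative. In each of these fits the lone empty library is assumed to vary like the libraries labelled Gpr56.

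**Figure D3:**
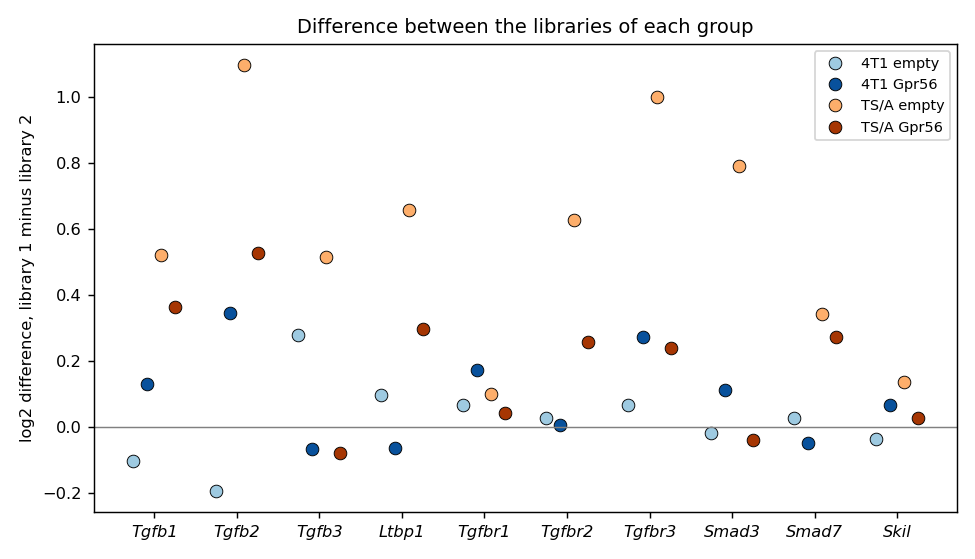
Points give, for each gene, the log2 difference between library 1 and library 2 of each of the 4 groups, with a line at 0. All 10 points of TS/A empty lie above 0, up to 1.10 for Tgfb2, while those of 4T1 empty and 4T1 Gpr56 reach at most 0.35.

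The vector effects of the lines were then set against each other, as TS/A minus 4T1 in the fit of all 8 libraries. No member passed (0 of 10), and 8 of 11970 genes did (0.0668%). Tgfbr3 came nearest, with a difference of 1.67 on the log2 scale (SE 0.45, unadjusted p = 0.00529 by edgeR's quasi-likelihood test, edgeR adjusted p = 0.476). The differences were 0.65 for Tgfb2 (SE 0.52, edgeR adjusted p = 0.905), 0.62 for Ltbp1 (SE 0.29, edgeR adjusted p = 0.777) and 0.29 for Skil (SE 0.15, edgeR adjusted p = 0.802). The other 6 ran from -0.27 for Smad3 to 0.17 for Tgfb3. The difference for Tgfbr3 passed by DESeq2's Wald test (1.68, adjusted p = 0.0436), with no filter on low counts (1.69, edgeR adjusted p = 0.00926), without TS/A empty library 1 (2.26, edgeR adjusted p = 7.79e-04) and without TS/A empty library 2 (1.26, edgeR adjusted p = 0.00324). Ltbp1 passed without TS/A empty library 1 (0.99, edgeR adjusted p = 0.00897), and Tgfbr2 (-0.51, edgeR adjusted p = 0.0182) and Smad3 (-0.61, edgeR adjusted p = 0.00819) passed without TS/A empty library 2. The count of genes went to 311 and 2391 in these 2 fits and to 0 or 1 when any other library was left out. Tgfbr3 passed in 4 of 17 alternatives, and with a TS/A empty library left out that group gives no spread of its own. The falls of Tgfbr3, Tgfb2, Ltbp1 and Skil passed in 4T1 and not in TS/A. This therefore does not show that the falls differ between the lines.

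TS/A and 4T1 were also compared with the empty vector alone, in a contrast that uses the same empty libraries as the vector effects. TS/A had more of the ligands Tgfb1 and Tgfb3, of betaglycan and of Skil, and less of both kinase receptors. This made 4 members higher and 2 lower, or 6 of 10, where 47.4% of 11970 genes passed (23.9% higher and 23.5% lower). The groups did not overlap between all 4 libraries of each line for 7 of 10 members, these 6 and Smad3, and for 58.9% of all genes. Both shares lie near the background of 2 lines that differ at many genes.

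The kinase receptors stood furthest below 4T1. Tgfbr1, at 16.7 and 15.6 CPM in TS/A with the empty vector and 58.0 and 55.4 CPM in 4T1, was 3.50-fold lower (log2 fold change -1.81, SE 0.13, edgeR adjusted p = 1.73e-05). Tgfbr2, at 112 and 72.4 CPM against 211 and 207 CPM, was 2.27-fold lower (-1.18, SE 0.20, edgeR adjusted p = 0.00172). Tgfbr3 went the other way, at 53.8 and 26.8 CPM in TS/A against 12.2 and 11.7 CPM in 4T1, 3.39-fold higher (1.76, SE 0.30, edgeR adjusted p = 0.0019). The lowest TS/A library for betaglycan, at 26.8 CPM, was still above the highest 4T1 library. These 3 receptor calls held in each of the 18 alternatives run.

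Of the ligands, Tgfb1 was 1.85-fold higher in TS/A (log2 fold change 0.89, SE 0.20, edgeR adjusted p = 0.00721) and Tgfb3 1.92-fold higher (0.94, SE 0.20, edgeR adjusted p = 0.00587). The Tgfb1 call was lost without 4T1 empty library 1 (edgeR adjusted p = 0.0608) and the Tgfb3 call without 4T1 empty library 2 (edgeR adjusted p = 0.0616). Tgfb2 overlapped between the lines (-0.41, SE 0.35, edgeR adjusted p = 0.361), as did Ltbp1 (-0.12, SE 0.20, edgeR adjusted p = 0.652). Without TS/A empty library 1 both were lower (Tgfb2 -1.09 and Ltbp1 -0.49), and without TS/A empty library 2 both were positive (Tgfb2 0.02 and Ltbp1 0.17). Their direction thus turned on which empty library was kept.

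Skil was 1.24-fold higher in TS/A (0.32, SE 0.11, edgeR adjusted p = 0.0388), a call that was kept in 7 of 18 alternatives and lost when any library other than the 2 TS/A empty ones was left out (edgeR adjusted p from 0.0689 to 0.213). Smad3 was lower by an amount that did not pass (-0.57, SE 0.22, edgeR adjusted p = 0.0666), and passed in 3 alternatives. These were DESeq2 (-0.57, adjusted p = 0.0395), no filter on low counts (-0.57, edgeR adjusted p = 0.0145) and the fit without TS/A empty library 1 (-1.02, edgeR adjusted p = 5.88e-06). Smad7 overlapped (-0.09, SE 0.16, edgeR adjusted p = 0.668) and passed in no alternative. The number of genes that passed over the whole table fell from 5674 to 3335 when 4T1 empty library 1 was left out and to 3349 when library 2 was.

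**Figure D4:**
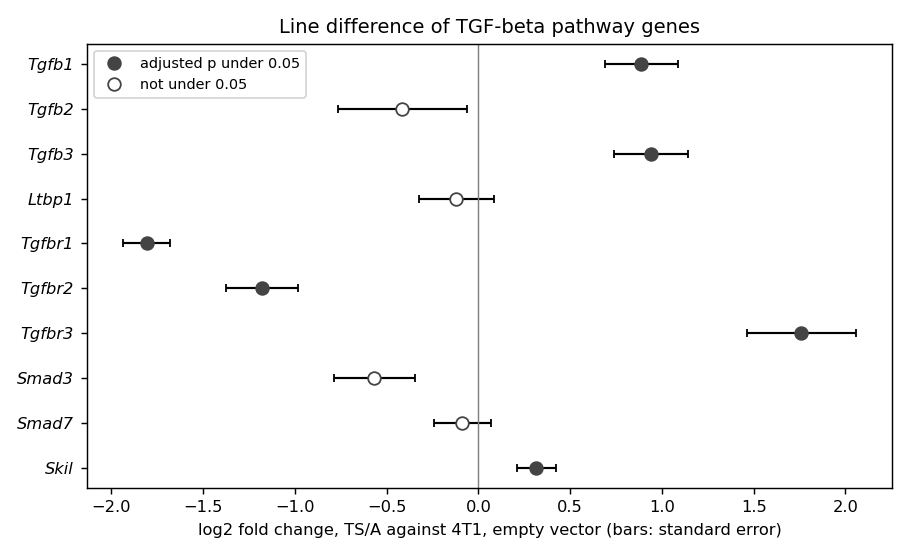
Points give the log2 fold change of TS/A against 4T1, both with the empty vector, bars the standard error, and filled points an adjusted p under 0.05. Tgfbr1 (-1.81) and Tgfbr2 (-1.18) lie left of 0 and Tgfbr3 (1.76), Tgfb3 (0.94), Tgfb1 (0.89) and Skil (0.32) right of it.

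Beyond the 10 members, 6 lists of pathway genes were followed. In 4T1, 7 of 18 tested genes that process or release the ligand rose and 3 fell (55.6% called, against 22.8% of all genes, and a median log2 fold change of 0.14). Plau, the urokinase that generates plasmin, rose by a log2 fold change of 0.57 (SE 0.06, edgeR adjusted p = 5.92e-06) and the gelatinase Mmp9 by 0.63 (SE 0.07, edgeR adjusted p = 1.67e-05). Thbs1, thrombospondin 1, which activates latent TGF-beta, fell by 0.47 (SE 0.05, edgeR adjusted p = 2.02e-05), and Hspa5, an endoplasmic reticulum chaperone, fell by 0.23 (edgeR adjusted p = 0.00522). Among genes known to respond to TGF-beta, 8 of 31 rose and 7 fell (48.4%, median -0.01). Id1, an inhibitor of helix-loop-helix factors that BMP signals also induce, rose by 0.86 (SE 0.09, edgeR adjusted p = 9.43e-06) and the cell cycle inhibitor Cdkn1a by 0.68 (SE 0.10, edgeR adjusted p = 2.74e-04). The intermediate filament gene Vim fell by 0.58 (SE 0.05, edgeR adjusted p = 2.26e-06) and Klf10, an early TGF-beta response factor, by 0.52 (SE 0.07, edgeR adjusted p = 9.41e-05).

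Genes listed as negative regulators, not all of which restrain the pathway, were split in 4T1. Of these, 2 of 20 were higher and 5 lower (35%, median 0.02). The antiproliferative gene Tob1 rose by 0.58 (SE 0.11, edgeR adjusted p = 0.00158) and the ubiquitin ligase Smurf1 by 0.26, while Dab2, an endocytic adaptor also reported to link receptors to Smads, fell by 0.48 (SE 0.07, edgeR adjusted p = 1.25e-04) and the ubiquitin ligase Wwp1 fell by 0.33. Of the Smads and their adaptors 1 of 15 rose and 3 fell (26.7%, median -0.07), with the acetyltransferase Crebbp at 0.33, the ubiquitin ligase Trim33 at -0.32 and Smad1 of the BMP branch at -0.33. Receptors of the wider family gave 1 of 11 higher, the co-receptor Eng (0.32), and 1 lower, Cd109 (-0.41), with a median of 0.01 (18.2%). Of the activins, BMPs and their antagonists, 2 of 11 were higher, Fst (0.47) and Bmp1 (0.16), and 1 lower, Twsg1 (-0.38), with a median of -0.02 (27.3%). With all 8 libraries 0 members of these 6 lists passed in 4T1. Of the 20 genes that the naming rule took from them, 12 passed each time 1 library of 4T1 was left out, and Hspa5, Cd109, Crebbp, Smad1, Smurf1, Wwp1, Fst and Bmp1 lost their call at least once (edgeR adjusted p up to 0.431). In TS/A and in the difference between the vector effects, 0 members of the 6 lists passed by edgeR. By mean CPM over all 8 libraries the most abundant members of the lists were Hspa5 and Itgb1, Bmpr1a and Pdpk1, Tab2 and Map3k7, Fkbp1a and Strap, Vim and Hmga2, and Bmp1 and Twsg1, with log2 fold changes in TS/A from -0.42 for Twsg1 to 0.09 for Hspa5.

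Between the lines with the empty vector, ligand processing genes gave 3 of 20 higher and 9 lower in TS/A (60%, against 47.4% of all genes, median -0.62). The matrix protease Mmp2, at 419 and 193 reads against 2 and 7, and fibrillin Fbn1 (log2 fold change 2.78) were higher. The protease Adamts1, at 4 and 8 reads in TS/A against 2210 and 2758 in 4T1, and Mmp9 (-2.02) were lower. Endoglin (Eng), a co-receptor best known from endothelium, stood at 67.7 ± 3.75 CPM in 4T1 and 0.916 ± 0.154 CPM in TS/A (-6.18, SE 0.20, edgeR adjusted p = 3.81e-07). Receptors gave 3 of 11 higher, with Cd109 (2.12) and the TGF-beta-binding membrane protein Vasn (2.47) among them, and Eng as the 1 lower (36.4%, median 0.18). The Smads gave 2 of 15 higher, Zfyve16 (0.55) and Smad2 (0.43), and 1 lower, Map3k7 (-0.74), or 20% called (median -0.10).

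The genes listed as negative regulators gave 5 of 20 higher and 7 lower in TS/A (60%, median -0.23). Tob1 (1.23) and Stub1 (0.64) led above, and Usp4 (-0.67) and Sik1 (-1.16) below. Usp4 is among the listed genes that do not restrain the pathway, so these counts mix roles. TGF-beta response genes gave 12 of 36 higher and 11 lower (63.9%, median 0.15). N-cadherin (Cdh2), a mesenchymal adhesion molecule, had 3056 and 1724 reads in TS/A and 0 and 2 in 4T1. Cdkn1a was higher by 2.84, whereas the matricellular gene Ctgf, at 433 ± 8.32 CPM in 4T1 and 21.6 ± 1.56 CPM in TS/A, and tenascin Tnc (-5.07) were lower. Of the activins, BMPs and their antagonists 5 of 14 were higher, with Fstl1 (4.84) and Bmp7 (2.76), and 5 lower, with Nbl1 (-2.004) and the activin subunit Inhba, at 58.0 ± 0.197 CPM in 4T1 and 1.63 ± 0.213 CPM in TS/A (71.4%, median -0.30). The calls of Zfyve16 and Smad2 were lost without either 4T1 empty library (edgeR adjusted p up to 0.117), and the other 20 genes named for this contrast passed in each fit with 1 library left out.

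Genes whose levels ran most like those of each member over the 8 libraries were found by the root mean square difference of centred log2 CPM, among about 8592 genes of at least 10 CPM on average. The nearest to Tgfb1 was Psap (0.063), to Tgfb2 Zfp827 (0.164), to Tgfb3 Stab1 (0.077) and to Ltbp1 Csf1 (0.098). The nearest to Tgfbr1 was Sertad4 (0.102), to Tgfbr2 Bcar1 (0.055) and to Tgfbr3 the collagen chain gene Col6a1 (0.244). Eif5b lay nearest to Smad3 (0.052), Fnbp4 to Smad7 (0.050) and Kifc1 to Skil (0.043). The next nearest, from Tgfb2 on in the same order of members, were Cplane1, Cep131, Zgrf1, Rnf24, Dhx37, St3gal5, Raph1, Igfbp4 and Gnl1. Median distances over all these genes ran from 0.322 for Smad7 to 1.48 for Tgfbr3. The points share line, depth and library, and the distances describe these 8 libraries only.

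In GENCODE M21 on GRCm38, Tgfb1 lies at chr7:25687002-25705077, Tgfb2 at chr1:186622792-186705989, Tgfb3 at chr12:86056745-86079041 and Ltbp1 at chr17:75005568-75392512. Tgfbr1 lies at chr4:47353222-47414931, Tgfbr2 at chr9:116084293-116175360, Tgfbr3 at chr5:107106570-107289629, Smad3 at chr9:63646767-63757994, Skil at chr3:31095058-31122577 and Smad7 on chromosome 18. Counts are listed per transcript, and the sources used here do not say how reads were assigned to them. Exons of Tgfb2 and Tgfb3 overlap antisense transcripts (Gm29491, and Gm37804 with Gm48008) and those of Tgfbr3 overlap Gm43422 on the same strand. None of these has a row in the count files, and the library kit does not mark strand, so reads from them cannot be told apart from reads of the member.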

How the data were processed

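RNA of 8 libraries was sequenced after the RNeasy Mini Kit and the TruSeq RNA Library Preparation Kit v2, per the labels' protocols. Per the file headers, each deposited file lists 65042 transcripts, each with its counts (total gene reads, whole numbers) and its RPKM. The names of the authors' aligner, counting tool and genome build were not given in the sources used here. Counts were summed to 22026 genes through the name column with its trailing number removed (15815 with a read). Authors' RPKM, deposited per transcript, was summed the same way and used only to order genes by level.

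Tests were edgeR 4.0.16 in R 4.3.3 (filterByExpr, TMM, glmQLFit, glmQLFTest) adjusted by Benjamini-Hochberg and called under 0.05. Vector effects were fitted on the 4 libraries of a line. The difference between them and the line contrast used all 8 libraries. A standard error is the size of a log2 fold change over the root of its quasi-likelihood F. In CPM of the library total, 3 reads were 0.116 to 0.285 CPM, a floor for counting error only. Replicate libraries differed beyond sampling noise in every group (chi-square per degree of freedom 3.58 for 4T1 empty, 5.39 for 4T1 Gpr56, 118 for TS/A empty, 17.4 for TS/A Gpr56). Scripts were tested on simulated data.

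The members, the 6 pathway lists, 4 marker lists, the choice of fitting each line alone and the naming rule were set with earlier results of these data known. The rule named the 10 members, Adgrg1, up to 2 called members each way of each pathway list and comparison by smallest p, or the 2 most abundant tested members over all 8 libraries where none was called, and the 2 genes nearest each member. A gene that the rule took is not reported here. The pathway lists share some genes, and 1 symbol of the Smad list matched no row. Alternatives used limma 3.58.1 and DESeq2 1.42.0, other scaling and filters, a replicate block, summing through GENCODE M21 (65023 of 65042 transcripts found) and leaving out libraries.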

Additional observations from a re-analysis of the deposited data

Results flagged for a closer look

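The vector effect on Adgrg1, the transduced gene, differed between the lines by -5.67 on the log2 scale (TS/A minus 4T1, SE 0.55, edgeR adjusted p = 0.0204, all 8 libraries fitted). Adgrg1 was higher in both 4T1 Gpr56 libraries than in both 4T1 empty libraries, while the TS/A groups overlapped. The difference ran from -6.11 to -5.00 over 17 alternatives and passed in 10 of them. It was lost with limma-voom (adjusted p = 0.0907) and without any 1 library other than the 2 TS/A empty ones (edgeR adjusted p from 0.104 to 0.274). No pathway member had such a difference past the threshold.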

How the results depend on the processing

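The 2588 genes and 4 members of the 4T1 vector effect became 27 genes and 0 members with all 8 libraries, 130 and 1 with all 8 and a replicate block, and 1549 genes by DESeq2. They were 1285 and 1269 genes when TS/A empty library 1 or 2 was left out of a fit of both lines, an alternative added after seeing the data, as was the block within a line (2824 genes in 4T1). Leaving out 1 library of 4T1 gave 1403 to 2748 genes and 4 to 5 members. Scaled by library totals, 1624 genes were higher and 1042 lower (60.9% higher, against 50.5%). In TS/A the 0 genes became 3 by DESeq2, 4 with no filter, 1 with all 8 libraries with or without the replicate block and 26 with the block within the line. Without 1 library they were 4 to 1140 genes and 0 to 2 members. The 8 genes of the difference became 4 with library totals (0 higher and 4 lower, against 2 and 6), 66 by DESeq2, 0 by limma-voom (773 at an unadjusted p under 0.05), 4 with a variance for each group, 60 with no filter and 37 with the replicate block. Its 0 members became 1 by DESeq2 and 1 with no filter, and leaving out 1 library gave 0 to 2391 genes and 0 to 3 members. The line contrast fell from 5674 to 3713 genes with only the empty vector libraries and ran from 3335 to 7853 genes, with 4 to 9 members, without 1 library. Replicate numbers were not shown to pair the libraries (correlation of deviations -0.02 in 4T1 and 0.31 in TS/A). For all of these the cause was not tested, and the fits with libraries left out also had fewer samples. No named gene's called value changed sign. Tgfb2 was not tested at the filter of 10 CPM, and Tgfbr1 passed in 4 of 16 alternatives in 4T1. The alternative on uniquely mapped reads was not run, as no column of them was used here. The shallowest library held 41 reads of Tgfb2 and 30 of Tgfbr3, which limits the precision of both.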
